A study of Homo sapiens with 54 samples.

Results

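MDA-MB-231 cells, a human triple-negative breast cancer line with a mesenchymal appearance, were treated for 48 h either with a pair of alkaloids or with the herbal extract from which that pair had been taken out. The OO libraries come from cells given oxymatrine and oxysophocarpine alone. The N_2 libraries come from cells given Compound Kushen Injection (CKI) lacking those same alkaloids. Each group holds 3 libraries, all of batch 1 and all with a treatment labelled 2 mg/ml, meaning the amounts present in CKI at 2 mg/ml of total alkaloids. These 6 of the 54 libraries in the series were chosen by their labels for treatment, time and batch, and no measured value was used. Since the mixtures complement each other, the comparison asks how the transcriptome under 2 abundant compounds differs from the transcriptome under everything else in the extract.

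The series used poly(A) RNA sequencing, described as strand-specific, of this line under 18 combinations of treatment, time and batch with 3 libraries each. Untreated cells (UT) and cells given whole CKI, from the same batch and time, are used below to place OO and N_2. The mixtures without some compounds were rebuilt from chromatographic fractions or purchased compounds whereas CKI was used as supplied, so a difference in preparation and a difference in composition cannot be told apart where CKI is compared with OO or N_2. Only 1 line was used here, and each group is a mixture, so no value belongs to a single compound.

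CKI is prepared from the roots of kushen (Sophora flavescens) and baituling, and its quinolizidine alkaloids include matrine and sophocarpine together with their N-oxides, which are oxymatrine and oxysophocarpine. The unoxidised forms stay in N_2. Cells under chemical stress use a small number of transcriptional programmes that can be read from RNA. Misfolded protein in the endoplasmic reticulum (ER) induces ER chaperones through ATF6 and XBP1, while amino acid or ER stress acting through eIF2alpha induces ATF4 and its targets. Free zinc and other metals induce metallothioneins through MTF1, electrophiles induce NRF2 targets, planar aromatic compounds induce CYP1A1 through the aryl hydrocarbon receptor (AHR), and misfolded cytosolic protein induces heat shock proteins through HSF1.

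The 6 libraries held 20073324 to 23459243 counted fragments. Values below are CPM, counts scaled to a common library total with TMM factors, and they compare libraries for a gene, not genes with each other, since they are not divided by transcript length. A gene was called when its adjusted p was under 0.05 in the quasi-likelihood test of edgeR, adjusted after Benjamini and Hochberg over all genes tested, and fold changes are OO relative to N_2 on the log2 scale, given with their SE, unless another pair is named (n = 3 per group throughout). The labels call the libraries biological replicates but do not say that they were separate cultures, so the p-values measure the spread between these libraries. In RNA from whole cultures, fewer cells of a kind and less RNA per cell cannot be told apart. With 3 libraries against 3, an exact permutation test of a single gene cannot go under a two-sided p of 0.1, so all calls rest on the fit across genes.

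The markers of the line were present in every library of both groups. VIM, CD44, AXL, MSN, KRT18, KRT8 and EGFR summed to between 3260 and 3330 CPM with OO and between 2550 and 2600 CPM with N_2, against 5520 to 5720 CPM in UT. Markers of other cells were low, although they were not equal between the groups. Luminal breast markers summed to 35.4 to 35.7 CPM with OO and 64.7 to 70.7 CPM with N_2, against 62.9 to 66.2 CPM in UT. ESR1 was at 0 in all OO libraries. Fibroblast markers summed to 26.5 to 30.2 CPM with OO and 82.6 to 88.5 CPM with N_2, in both mostly COL1A1, against 72.8 to 75.5 CPM in UT. For both lists UT thus stood nearer to N_2 than to OO. Of 5 embryonic kidney line markers, 4 were under 1 CPM in every OO and N_2 library, and these 4 were at 0 with OO. The part of these differences in the results below was not tested.

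OO and N_2 differed at most genes measured. Of 14979 genes tested, 11765 (78.5%) were called, 5957 (39.8%) higher with OO and 5808 (38.8%) higher with N_2. At a change of at least 2-fold, 3902 genes (26.0%) were called, 1683 (11.2%) higher with OO and 2219 (14.8%) higher with N_2. A call by itself therefore says little about a gene in these libraries, and the sizes of the changes carry the comparison. The root mean square log2 distance between an OO and an N_2 library was 1.01 to 1.08, against 0.275 to 0.293 among the OO libraries and 0.261 to 0.296 among the N_2 libraries. N_2 libraries lay farther from UT (1.21 to 1.23) than OO libraries did (0.76 to 0.809).

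**Figure D1:**
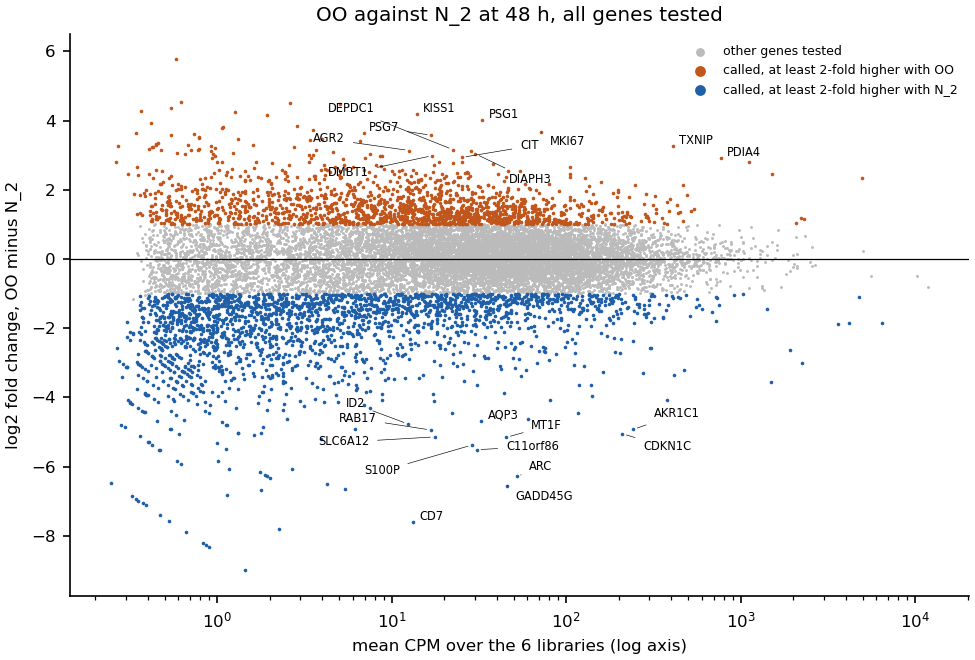
Each point is a gene tested between the 3 OO and the 3 N_2 libraries at 48 h, with its mean CPM over the 6 libraries on a log horizontal axis and its log2 fold change, OO minus N_2, on the vertical axis. Orange and blue points are the 1683 and 2219 called genes at least 2-fold higher with OO and with N_2, and the leading genes of each side that the text names are labelled.

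Of the genes that averaged 10 CPM or more over the 6 libraries, were called and had no overlap between the groups (which 41.7% of all genes had with OO higher and 37.9% with N_2 higher), 12 leading genes stood highest with OO relative to N_2, among them KISS1, PSG1, MKI67, PSG7, TXNIP, DEPDC1, AGR2, DIAPH3, DMBT1, CIT and PDIA4. Several of them serve cell division. MKI67, which encodes the Ki-67 proliferation antigen, measured 116, 130 and 135 CPM with OO and 11.2, 8.75 and 9.60 CPM with N_2. This is a fold change of 3.66 ± 0.08 (adjusted p = 4.73e-20), and no OO library came near an N_2 library. The citron kinase gene CIT and the formin DIAPH3, both with roles in cytokinesis, were 7.65- and 8.22-fold higher with OO. DEPDC1, a mitotic protein, was 8.93-fold higher.

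The other leading genes higher with OO had varied roles. KISS1, the precursor of kisspeptin and a gene first described as a suppressor of metastasis, measured 23.3, 26.5 and 25.4 CPM with OO against 1.46, 1.43 and 1.12 CPM with N_2. That was the largest change on this side, 4.19 ± 0.12 (adjusted p = 1.13e-17). TXNIP, an inhibitor of thioredoxin and of glucose uptake, gave 710, 679 and 731 CPM with OO and 72.5, 72.0 and 72.0 CPM with N_2, a 9.60-fold difference with almost no spread among the N_2 libraries. UT lay between them for TXNIP, at 254, 246 and 238 CPM. PDIA4, an ER protein disulfide isomerase, measured 1308, 1277 and 1304 CPM with OO and 154.5, 174 and 173 CPM with N_2. PSG1 and PSG7, pregnancy-specific glycoproteins, were 16.1- and 11.9-fold higher with OO, but the PSG genes are nearly identical copies and their reads cannot be assigned with certainty. The mucosal glycoprotein gene DMBT1 was 7.92-fold higher.

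The 12 leading genes on the N_2 side were CD7, GADD45G, ARC, C11orf86, S100P, MT1F, SLC6A12, CDKN1C, RAB17, AKR1C1, ID2 and AQP3. Most of these were close to silent with OO. ARC, an immediate early gene best known from neurons, measured 1.52, 1.29 and 0.958 CPM with OO and 109, 84.8 and 93.3 CPM with N_2. The stress-induced growth arrest gene GADD45G went from 0.849, 0.963 and 0.918 CPM with OO to 93.3, 74.9 and 85.4 CPM with N_2, 93.8-fold higher. CD7, a surface protein of T cells, had 1, 5 and 3 counts in the OO libraries and 545, 590 and 577 counts in the N_2 libraries, so its fitted change of -7.59 depends on the prior count.

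AKR1C1 and CDKN1C were well expressed with N_2. AKR1C1, a ketosteroid reductase and a target of NRF2, measured 16.3, 14.6 and 13.2 CPM with OO and 458, 409 and 446 CPM with N_2 (-4.93 ± 0.07, adjusted p = 2.28e-22), and reads of its close relatives AKR1C2 and AKR1C3 could have been shared with it. CDKN1C, the cyclin-dependent kinase inhibitor p57, gave 10.8, 12.7 and 11.5 CPM with OO and 464, 328 and 348 CPM with N_2. Here the groups moved apart from UT in opposite directions. UT stood at 47.1, 62.6 and 68.1 CPM, so CDKN1C fell by 2.33 on the log2 scale with OO and rose by 2.72 with N_2. S100P, a calcium-binding protein of epithelial tumours, the betaine transporter SLC6A12, the small GTPase RAB17, the water channel AQP3 and the transcriptional inhibitor ID2 were 25.5- to 41.6-fold higher with N_2.

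**Figure D2:**
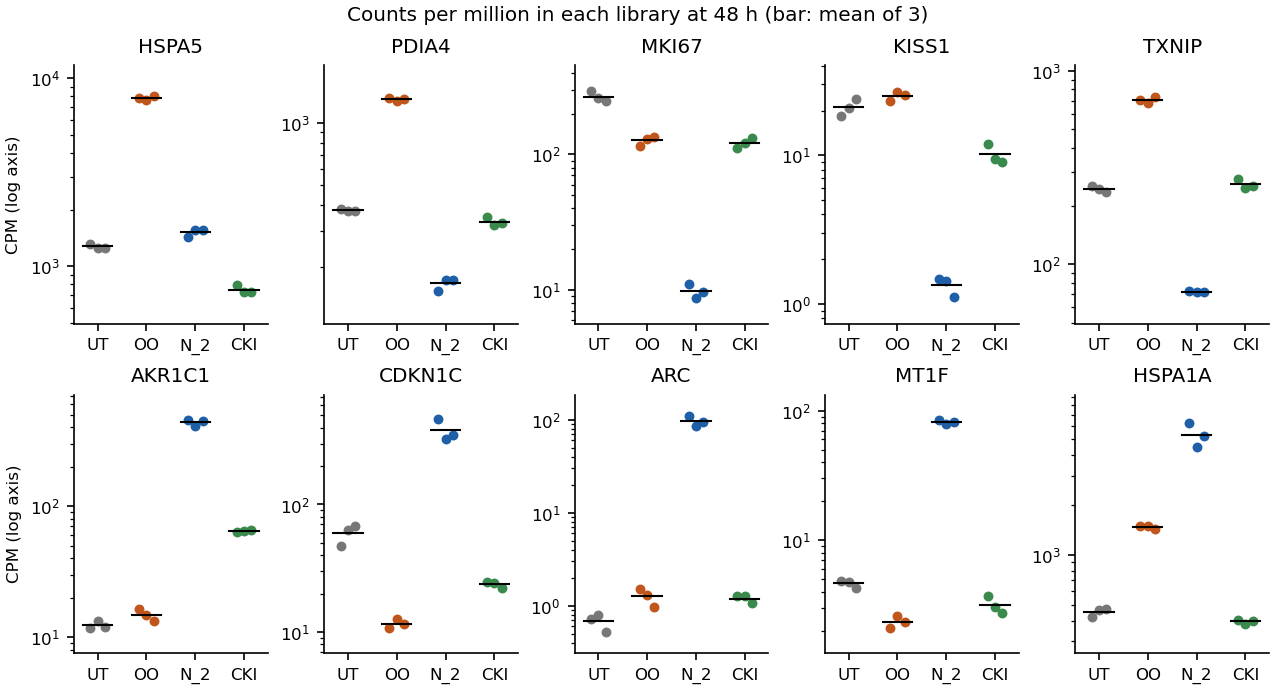
CPM on log vertical axes for 10 genes in the 3 libraries each of UT, OO, N_2 and CKI at 48 h, with a bar at each mean. HSPA5, PDIA4, MKI67, KISS1 and TXNIP are higher in all OO than in all N_2 libraries and AKR1C1, CDKN1C, ARC, MT1F and HSPA1A lower, and for HSPA5 the OO libraries at 7640 to 7996 CPM stand above all other groups.

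ER chaperones stood higher with OO throughout. All 14 members were called higher with OO, where 39.8% of all genes were, and 12 of them by at least 2-fold, where 11.2% of all genes were. Their median change was 1.96, against 0.00 over all genes tested. ATF6 and XBP1 act on the proximal promoters of such genes, and those of HSPA5, HSP90B1, CRELD2 and XBP1 are shown because these genes cover members with large and with small changes. Sequences are from RefSeq (GRCh38.p14), 150 bases up to the transcription start, 5′ to 3′ on the gene's strand, and all 14 members had an entry there.
HSPA5, chr9:125241344-125241493, minus strand: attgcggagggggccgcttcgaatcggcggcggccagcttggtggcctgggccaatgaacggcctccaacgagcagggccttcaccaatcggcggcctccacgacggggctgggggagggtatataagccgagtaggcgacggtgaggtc
HSP90B1, chr12:103930260-103930409, plus strand: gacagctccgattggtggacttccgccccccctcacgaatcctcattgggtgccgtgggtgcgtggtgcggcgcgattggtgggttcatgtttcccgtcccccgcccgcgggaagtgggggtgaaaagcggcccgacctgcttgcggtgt
CRELD2, chr22:49918484-49918633, plus strand: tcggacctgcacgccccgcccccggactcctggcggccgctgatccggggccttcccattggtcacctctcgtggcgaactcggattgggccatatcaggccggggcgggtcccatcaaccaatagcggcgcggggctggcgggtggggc
XBP1, chr22:28800570-28800719, minus strand: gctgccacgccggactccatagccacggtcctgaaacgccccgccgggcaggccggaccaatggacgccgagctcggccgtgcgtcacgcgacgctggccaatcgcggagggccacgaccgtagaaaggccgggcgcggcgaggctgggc

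HSPA5, the master ER chaperone BiP that holds ATF6 and other stress sensors inactive, measured 7843, 7640 and 7996 CPM with OO and 1432, 1549 and 1554 CPM with N_2. Its change was 2.34 ± 0.05 (adjusted p = 1.46e-20), or 5.07-fold. The UT libraries stood at 1318, 1245 and 1257 CPM, slightly under N_2. HSP90B1 (GRP94), the ER member of the HSP90 family, gave 2454, 2338 and 2531 CPM with OO against 406.5, 455 and 455 CPM with N_2, a 5.45-fold difference. For HSP90B1 the UT libraries, at 991, 958 and 946 CPM, lay between the groups.

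The largest changes in the list belonged to PDIA4 (2.93 ± 0.05), to HYOU1 (2.81 ± 0.05), a large ER relative of HSP70 that exchanges nucleotide on BiP, and to SDF2L1 (2.66 ± 0.06), a partner of ER DNAJ proteins. HYOU1 measured 1827, 1792 and 1909 CPM with OO and 249.8, 258 and 268 CPM with N_2. MANF, a secreted ER stress protein, and CRELD2, an ER disulfide isomerase, were 4.44- and 4.37-fold higher with OO. HERPUD1, a part of the machinery that removes misfolded proteins from the ER, measured 288, 281 and 297 CPM with OO and 77.1, 84.9 and 81.6 CPM with N_2. At the lower end stood the lectin chaperones CALR (2.27-fold) and CANX (1.78-fold) and the transcription factor XBP1 (1.58-fold), all without overlap between the groups. XBP1 is activated by splicing of its RNA, which gene counts do not show.

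Against UT, the ER chaperones rose with OO and mostly fell with N_2. All 14 were called higher in OO than in UT, beside 34.1% of all genes (67.8% were called in either direction). In N_2, 4 were higher than in UT, beside 40.1% of all genes, and 9 were lower, beside 40.4% (80.4% in either direction). The 4 were HSPA5, DNAJB9, HERPUD1 and XBP1, which rose by 0.28, 0.83, 0.69 and 0.17 on the log2 scale, and CANX had no call (0.11, adjusted p = 0.0847). These comparisons share the UT libraries and are not independent of each other. Whole CKI stood near UT or under it for most members, with HSPA5 at 789.9, 724.5 and 732.9 CPM.

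**Figure D3:**
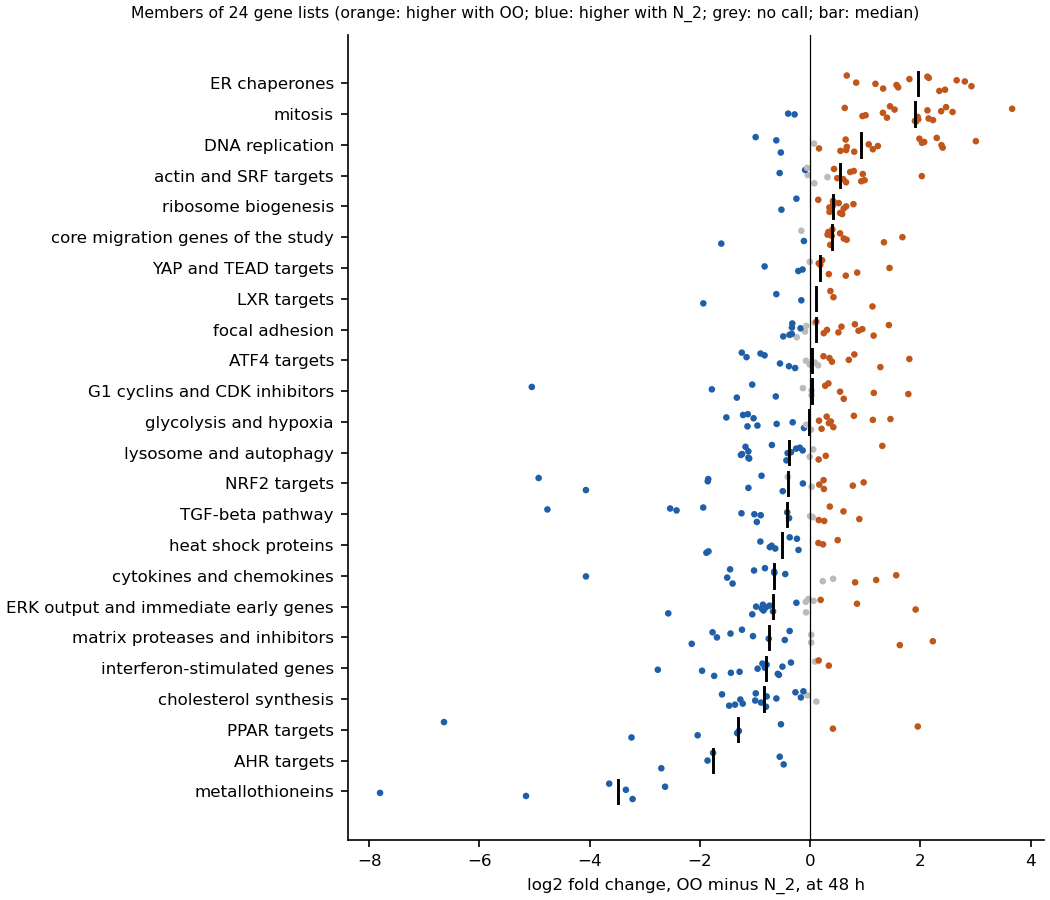
Log2 fold change, OO minus N_2, at 48 h for the tested members of each gene list, 1 point a gene, with a bar at the median. Orange and blue points are called genes higher with OO and with N_2 and grey points have no call, so that ER chaperones (median 1.96) and mitosis genes (1.91) lie to the right and metallothioneins (-3.50) and AHR targets (-1.76) to the left.

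Metallothioneins, small cysteine-rich proteins that bind zinc and copper, formed the opposite pattern. All 6 tested members of this list were higher with N_2, beside 38.8% of all genes, with a median of -3.50, and the seventh, MT1G, had too few counts to test. MTF1 acts on the proximal promoters of these genes, and 3 of the 7 members had a RefSeq entry. The 150 bases before the starts of MT1X and MT2A are printed as above because these genes were much higher with N_2.
MT1X, chr16:56682320-56682469, plus strand: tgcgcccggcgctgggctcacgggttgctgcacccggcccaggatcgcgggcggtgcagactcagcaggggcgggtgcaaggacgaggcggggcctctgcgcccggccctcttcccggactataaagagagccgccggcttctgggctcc
MT2A, chr16:56608434-56608583, plus strand: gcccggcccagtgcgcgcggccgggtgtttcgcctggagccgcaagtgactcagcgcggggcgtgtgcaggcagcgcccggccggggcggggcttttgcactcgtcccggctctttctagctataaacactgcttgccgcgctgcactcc

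MT2A, a metallothionein made in most tissues, measured 498, 500.0 and 510 CPM with OO and 3245, 3012 and 2917 CPM with N_2, a change of -2.63 ± 0.05 (adjusted p = 2.16e-21). MT1X gave 65.9, 67.7 and 77.8 CPM with OO and 749.8, 668 and 690.2 CPM with N_2, 10.2-fold higher with N_2. MT1E was 9.33-fold and MT1F 35.7-fold higher with N_2. The MT1 genes are close paralogs, and part of their reads may be assigned to the wrong member. SLC30A1, the zinc exporter ZnT1 and no paralog of theirs, gave 17.9, 19.5 and 21.1 CPM with OO and 266, 219 and 235 CPM with N_2. MT1M had 0, 1 and 0 counts with OO and 95, 105 and 93 counts with N_2, so no fold is given for it.

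Against UT the metallothionein list rose in N_2 and had no common direction in OO. In N_2 all 6 tested members were higher than in UT, beside 40.1% of all genes, with MT2A at 3.00 ± 0.07 and MT1X at 4.91 ± 0.07. In OO, of 5 tested members, MT1X (1.58) and MT2A (0.38) were higher, MT1F (-0.97) and SLC30A1 (-0.30) were lower, and MT1E had no call (0.12, adjusted p = 0.0546). Whole CKI, which holds all the compounds of N_2, stood close to OO for this list, with MT2A at 512, 447 and 450.5 CPM.

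Other programmes that answer to foreign or reactive compounds were also higher with N_2, although less evenly. All 5 tested AHR targets were higher with N_2 (median -1.76), beside 38.8% of all genes. They were led by CYP1A1, the monooxygenase that oxidises polycyclic aromatics, at 7.29, 5.82 and 5.75 CPM with OO and 41.6, 37.4 and 40.9 CPM with N_2. Here OO was not at the UT level, since CYP1A1 was 2.40 ± 0.17 higher in OO than in UT. The AHR repressor AHRR was 3.64-fold higher with N_2 and CYP1B1 1.4-fold. Of 15 NRF2 targets 8 were higher with N_2 and 5 with OO (median -0.41), beside 38.8% and 39.8% of all genes. The list did not move as a whole. The members that differed most after AKR1C1 handle haem and iron. HMOX1, which degrades haem, measured 44.0, 37.7 and 39.2 CPM with OO and 747, 633 and 611 CPM with N_2, and the ferritin heavy chain gene FTH1 measured 2661, 2568 and 2725 CPM with OO and 9515, 9779 and 8998 CPM with N_2.

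Heat shock proteins of the cytosol were higher with N_2 for 9 of 12 members and higher with OO for 3 (median -0.50), beside 38.8% and 39.8% of all genes. The inducible HSP70 gene HSPA1A gave 1483, 1492 and 1430 CPM with OO and 6215, 4489 and 5238 CPM with N_2, a 3.69-fold difference. HSPA1A and HSPA1B code for the same protein and share most reads, so their values are not separate. The small heat shock protein HSPB1 (1.87-fold) and the HSP40 gene DNAJB1 (1.66-fold) were higher with N_2 too. The 3 members higher with OO were the HSP90 genes HSP90AA1 (1.18-fold) and HSP90AB1 (1.11-fold) and the mitochondrial chaperonin HSPD1 (1.41-fold). Against UT the list was divided in OO, with 5 members higher and 4 lower (median 0.06, beside 34.1% and 33.7% of all genes), and in N_2 7 were higher and 2 lower (median 0.21, beside 40.1% and 40.4%). HSPA1A was its highest member in both, at 1.72 ± 0.05 over UT in OO and 3.59 ± 0.09 in N_2.

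Cell cycle genes fell below UT in both groups and far more in N_2. Of 20 mitosis genes 18 were higher with OO than with N_2 and 2 were lower (median 1.91), beside 39.8% and 38.8% of all genes. At least 2-fold higher with OO were 16 of them, beside 11.2% of all genes. Of 20 DNA replication genes 16 were higher with OO and 3 were lower (median 0.93), beside the same 39.8% and 38.8%. TOP2A, the topoisomerase that untangles sister chromatids, measured 164, 162 and 174 CPM with OO, 34.3, 29.4 and 30.9 CPM with N_2 and 417, 380 and 378 CPM in UT. The survivin gene BIRC5 was 5.52-fold and the mitotic kinesin gene KIF20A 5.99-fold higher with OO. Among replication genes, MCM10, a factor of origin firing, was 5.29-fold, the ribonucleotide reductase subunit RRM2 5.21-fold and the thymidylate synthase TYMS 4.91-fold higher with OO.

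All 20 mitosis genes and all 20 replication genes were called lower than UT in OO (19 of the replication genes under library sizes alone), beside 33.7% of all genes, and again in N_2, beside 40.4% of all genes. The medians relative to UT were -1.08 and -1.42 in OO and -2.76 and -2.37 in N_2. The inhibitors of cyclin-dependent kinases did not share 1 direction in OO, where CDKN1C was below UT as given above and CDKN1A above it. CDKN1A (p21) measured 311, 306 and 308 CPM with OO and 1092, 1032 and 1003 CPM with N_2, against 147, 154 and 158 CPM in UT. G1 cyclins were divided, with CCNE2 3.44-fold higher with OO and CCND2 2.52-fold higher with N_2.

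ATF4 targets stood above UT under both OO and N_2 and did not separate the groups as a list. Of 18 members, 7 were higher with OO and 7 with N_2, close to the 39.8% and 38.8% of all genes. The other 4 had no call, and the median was 0.04. Against UT the members rose in both groups. In OO, 17 of the 18 were called higher than UT and none lower, beside 34.1% and 33.7% of all genes, and in N_2, 14 were higher and 3 lower, beside 40.1% and 40.4%. TRIB3, a pseudokinase that restrains AKT, measured 312, 309 and 305.5 CPM with OO, 313, 307 and 293 CPM with N_2 and 67.3, 71.9 and 76.9 CPM in UT. Its difference between OO and N_2 was -0.01 with a 95% interval of -0.10 to 0.08. SESN2, a stress-induced inhibitor of mTORC1, differed by 0.08 (-0.01 to 0.18) and PHGDH, the entry enzyme of serine synthesis, by -0.08 (-0.22 to 0.07).

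Within this list the members that did differ pointed in both directions. DDIT3, the death-associated factor CHOP, measured 208, 199 and 206 CPM with OO and 83.0, 80.7 and 85.1 CPM with N_2, against 22.1, 23.5 and 21.4 CPM in UT. SHMT2, the mitochondrial serine hydroxymethyltransferase, was 3.48-fold higher with OO, being above UT in OO and below it in N_2. CEBPB and VLDLR, a transcription factor and a lipoprotein receptor, were 2.23- and 2.36-fold higher with N_2. ATF4 itself measured 371, 357.5 and 348 CPM with OO and 428, 420 and 427 CPM with N_2. ATF3 stood at 69.1, 71.5 and 74.3 CPM with OO and 90.4, 90.5 and 94.2 CPM with N_2, far above its 8.31, 8.10 and 8.55 CPM in UT.

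Most cholesterol synthesis genes and PPAR targets were higher with N_2 at 48 h. Of 16 cholesterol synthesis genes, 14 were higher with N_2 and none with OO (median -0.85, or 13 and 1 under library sizes alone), beside 38.8% and 39.8% of all genes, while FDPS (0.11, interval -0.00273 to 0.23) was among those with no call. MSMO1, a sterol methyl oxidase, measured 139, 135 and 132 CPM with OO, 396, 424 and 384 CPM with N_2 and 131, 126 and 127 CPM in UT. HMGCS1, the HMG-CoA synthase at the start of the pathway, gave 65.2, 60.7 and 62.7 CPM with OO and 172, 179 and 161 CPM with N_2. Of 8 tested PPAR targets 6 were higher with N_2, with ANGPTL4, an inhibitor of lipoprotein lipase, 9.46-fold and the pyruvate dehydrogenase kinase PDK4 4.12-fold higher, whereas HADHA, of mitochondrial beta-oxidation, was 3.87-fold higher with OO. LXR targets split evenly, and the cholesterol exporters went apart, ABCG1 being 3.83-fold higher with N_2 and ABCA1 2.19-fold higher with OO.

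Of 14 tested cytokines and chemokines 9 were higher with N_2 and 3 with OO (median -0.65), beside 38.8% and 39.8% of all genes. IL1B, a main cytokine of innate inflammation, measured 8.14, 9.11 and 8.62 CPM with OO and 128, 145 and 154 CPM with N_2, and IL1A was 2.84-fold higher with N_2. IL11, a cytokine of the IL6 family, went the other way, at 82.8, 78.3 and 70.6 CPM with OO and 23.8, 25.6 and 27.5 CPM with N_2, and IL24 was 1.61-fold higher with OO. Of 16 interferon-stimulated genes 13 were higher with N_2 and 2 with OO (median -0.81), beside the same shares of all genes. For the antiviral gene IFIT1 both groups were below UT, with 16.1, 14.3 and 15.3 CPM in OO, 54.5, 47.5 and 47.7 CPM in N_2 and 74.4, 79.8 and 71.1 CPM in UT. MX1, another antiviral effector, was lower than UT in OO (-0.96) and higher in N_2 (0.99).

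Lists of growth factor signalling were mixed. Of 17 genes of ERK output 10 were higher with N_2 and 3 with OO (median -0.67), beside 38.8% and 39.8% of all genes, shares that hold for the next counts too. FOSB and FOS, partners in AP-1, were 5.96- and 2.07-fold higher with N_2, while EGR1, another immediate early factor, measured 262, 308 and 264 CPM with OO and 64.9, 74.2 and 78.2 CPM with N_2. In the TGF-beta pathway 10 of 17 were higher with N_2 and 5 with OO (median -0.42). After ID2, a leading gene named above, the largest changes were in the BMP-responsive genes ID3 and ID1 and in BMP4. They were 5.82-, 5.37- and 3.84-fold higher with N_2. ID3, ID1 and BMP4 were all lower in OO than in UT. Of 18 lysosome and autophagy genes 13 were higher with N_2 and 3 with OO (median -0.38), led by the lysosomal hydrolase GLA (2.39-fold), and WIPI1, an early autophagy protein, was 2.48-fold higher with OO.

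Genes of the cytoskeleton and of adhesion, which the study examined for cell migration, differed less between the groups. Of 16 actin genes and targets of SRF 10 were higher with OO and 2 with N_2 (median 0.55), beside 39.8% and 38.8% of all genes, among them the crosslinker ACTN1 (1.98-fold) and the tropomyosin TPM1 (1.94-fold). The cytoplasmic actin gene ACTG1 was 1.90-fold higher, with the reservation that actin genes and pseudogenes are near copies. In the focal adhesion list 10 of 20 were higher with OO and 6 with N_2 (median 0.10), close to those shares. CAV1, the main protein of caveolae, measured 218, 210.1 and 216 CPM with OO and 85.4, 74.5 and 74.9 CPM with N_2, both well below the 711, 696 and 669 CPM of UT. The integrin subunit ITGA3 was 2.22-fold and the integrin linker TLN1 1.93-fold higher with OO. YAP and TEAD targets were higher with OO for 7 of 11 and with N_2 for 3 (median 0.18), with the receptor kinase AXL 2.71-fold higher.

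Of 13 tested matrix proteases and their inhibitors 9 were higher with N_2 and 2 with OO (median -0.75), beside 38.8% and 39.8% of all genes. Both exceptions were at least 2-fold higher with OO. The larger was PLAU, urokinase, which starts pericellular plasmin activation and measured 252, 240 and 252 CPM with OO and 46.7, 56.4 and 52.7 CPM with N_2. UT stood at 307.5, 313 and 311 CPM, so PLAU was close to UT in OO and 2.54 lower on the log2 scale in N_2. ADAMTS1 and the protease inhibitor SERPINE2 were 3.42- and 3.23-fold higher with N_2.

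Of the 14 core migration genes that the study selected with transcriptomes of this line, and which are therefore no independent choice, 13 could be tested, 10 were higher with OO and 2 were lower (median 0.39), beside 39.8% and 38.8% of all genes. AKT1, a kinase of the survival pathway, was 2.53-fold higher, at 247, 251 and 244 CPM against 96.5, 95.7 and 95.7 CPM. CCND1, CDK4, JAK2, CTNNB1, RB1 and APC were 1.24- to 1.52-fold higher with OO. CDH1, or E-cadherin, of which this line makes little, was 3.06-fold higher with N_2, at 5.88, 5.19 and 4.99 CPM. AKT2 was 1.08-fold higher with N_2 (adjusted p = 0.0273), and this call was lost under library sizes alone (0.122), with no filter beyond 1 count (0.186) and without any single library except N_2 replicate 2 (0.0514 to 0.105). PIK3CA differed by -0.16 (interval -0.32 to 0.00272, adjusted p = 0.0668). Relative to UT none of the 13 was higher in OO and 10 were lower (1 and 8 under library sizes alone), beside 34.1% and 33.7% of all genes, and in N_2 none was higher and 11 were lower, beside 40.1% and 40.4%.

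Of the remaining lists, ribosome biogenesis genes were higher with OO for 13 of 15 (median 0.41), beside 39.8% of all genes, with MYC 1.5-fold higher, and glycolysis and hypoxia genes were divided at 9 and 9 of 20. ADM and PFKFB3, targets of HIF1, were 2.87- and 2.20-fold higher with N_2, and CA9, a carbonic anhydrase and another such target, was 2.74-fold higher with OO.

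Since UT, OO, N_2 and CKI make up a layout in which each mixture is absent or present, the effects of OO and of N_2 could be added on the log2 scale and set against CKI. The departure, CKI minus OO minus N_2 plus UT, was called for 11623 of 15356 genes (75.7%), and was at least 2-fold for 6025 of them (39.2%). For these genes the effects of the mixtures did not add up on this scale to the level under CKI. The distances say the same, as CKI libraries lay 0.668 to 0.702 from UT and 0.663 to 0.701 from OO but 1.03 to 1.09 from N_2, of which CKI holds every compound.

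Among the genes that departed downwards were stress genes that had risen under each mixture but not under CKI. The HSP70 gene HSPA6, strictly inducible, measured 25.1, 25.5 and 24.8 CPM in OO, 254, 179.9 and 199 CPM in N_2, 1.69, 1.71 and 2.06 CPM in UT and 0.878, 1.01 and 0.629 CPM in CKI, a departure of -11.78 ± 0.20 (adjusted p = 1.58e-26). Its sequence is close to HSPA1A, so some reads may be shared. IL24 followed, with 99.1, 95.1 and 99.5 CPM in OO, 57.0, 66.3 and 55.1 CPM in N_2 and 6.90, 6.99 and 6.45 CPM in CKI (-8.23). S100P (-7.56), ARC (-7.23) and IL1A (-6.66) completed the 5 largest. Of the 18 ATF4 targets 16 departed downwards and 1 upwards (median -2.97), beside 37.2% and 38.5% of all genes. DDIT3 was at 208, 199 and 206 CPM in OO and 83.0, 80.7 and 85.1 CPM in N_2, but at 19.7, 18.4 and 17.5 CPM in CKI, under UT. Heat shock proteins departed downwards for 10 of 12 and upwards for none, beside the same shares, although as a list they had no common direction under OO. Their median departure was smaller, at -0.40, and 4 of them departed downwards by at least 2-fold, where 39.2% of all genes departed that far in either direction.

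Departures in the other direction were led by genes that had fallen under each mixture and fell less under CKI. LGALS12, a galectin, measured 72.0, 84.1 and 79.3 CPM in UT, 2.24, 1.77 and 1.28 CPM in OO, 1.72, 1.35 and 1.03 CPM in N_2 and 16.5, 14.0 and 15.3 CPM in CKI (8.92 ± 0.19). Between OO and N_2 it did not differ beyond the spread (0.32, interval -0.22 to 0.86). FAM111B, a predicted serine protease (7.81), the tight junction gene CLDN2 (6.78), the integrin subunit ITGA10 (6.58) and GINS2, of the replicative helicase (5.91), came next. ITGA10 was the exception among these in that CKI, at 30.1, 37.5 and 40.2 CPM, stood above UT at 9.60, 9.16 and 9.16 CPM. All 20 mitosis and all 20 replication genes departed upwards, beside 38.5% of all genes. The median log2 ratio of mean CPM to UT was -1.089 in OO, -2.786 in N_2 and -1.115 in CKI for mitosis genes. As a list they therefore fell less under CKI than under N_2 but not less than under OO. For replication genes it was -1.434, -2.403 and -0.4066.

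**Figure D4:**
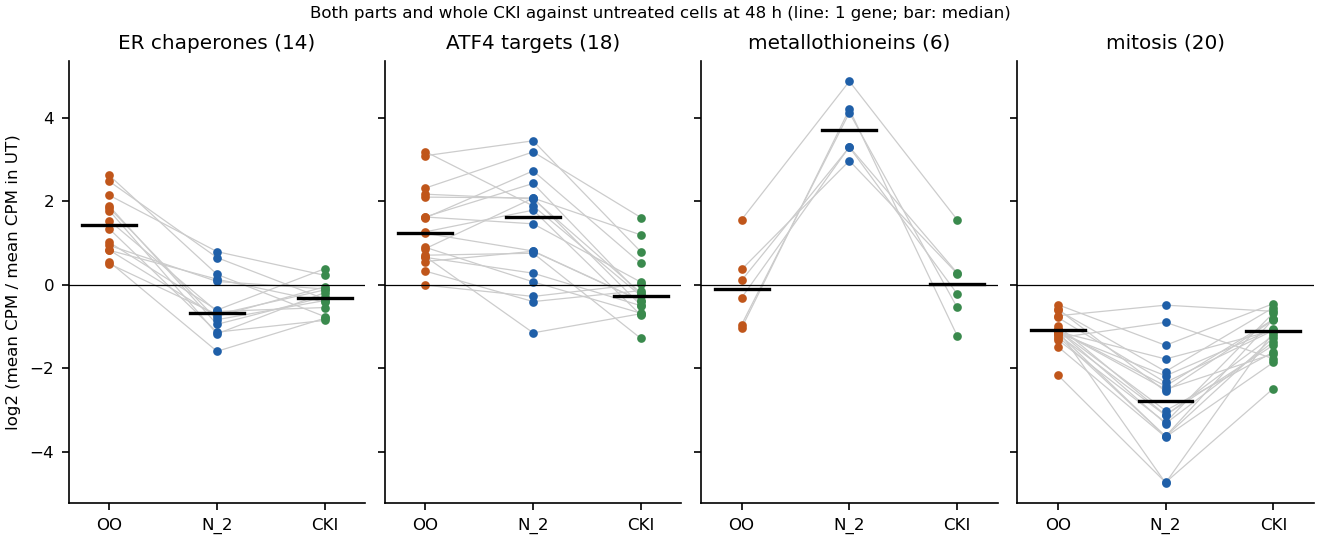
Log2 ratio of mean CPM to the mean in UT at 48 h, with 0.1 CPM added to both, for the tested members of 4 gene lists under OO, N_2 and CKI, with 1 line a gene and a bar at the median. ATF4 targets have medians of 1.25, 1.62 and -0.26, and metallothioneins of -0.11, 3.71 and 0.02, in that order.

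At 24 h the same mixtures were measured in 6 other libraries of batch 1, with 19085124 to 24732153 counts. They were more spread than at 48 h, at distances of 0.47 to 0.662 among the OO libraries and 0.384 to 0.624 among the N_2 libraries, of which replicate 3 lay farthest from the others. Of 14381 genes tested 7873 (54.7%) were called, 27.7% higher with OO and 27.1% higher with N_2. Of the calls 50.5% were higher with OO, or 70.0% when libraries were scaled by their sizes alone, which moved the median of all genes by 0.339. All 12 leading genes of the OO side and all 12 of the N_2 side at 48 h had the same direction at 24 h without overlap between the groups, beside 32.0% and 28.7% of all genes, and 11 and 12 were called. The gene with no call was AGR2, an ER disulfide isomerase, at 5.98, 4.58 and 4.74 CPM with OO and 3.66, 4.27 and 1.47 CPM with N_2 (adjusted p = 0.137). MKI67 measured 164, 291 and 257.5 CPM with OO and 97.1, 133.5 and 46.7 CPM with N_2, so that its separation was smaller than at 48 h.

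Some lists changed between the times. The difference between OO and N_2 itself differed between 48 and 24 h for 4113 of 15299 genes (26.9%), with 55.1% of these having the larger value at 48 h, or 23.7% under library sizes alone (a median shift of -0.295). Without N_2 replicate 1 of 24 h the count was 2701, and with all 54 libraries in 1 fit it was 6202. The ER chaperones mostly had no call between OO and N_2 at 24 h. Of 14 members 4 were higher with OO and 1 with N_2 (median 0.21), beside 27.7% and 27.1% of all genes. Under library sizes alone 7 were higher and none lower, where 5765 and 2468 of all 14381 genes tested were. No test against UT was run at 24 h. HSPA5 stood at 1287, 1665 and 1360 CPM with OO and 2227, 1974 and 2436 CPM with N_2, the reverse of 48 h (-0.66 ± 0.19, adjusted p = 0.0158). This call at 24 h did not hold under library sizes alone (-0.32, adjusted p = 0.179) or without N_2 replicate 1 (0.0588), OO replicate 1 (0.0527) or OO replicate 3 (0.0686). The difference between the times was called for all 14 members, each with the larger value at 48 h (median 1.59), beside 14.8% of all genes, and also without any single 24 h library. It was called for 12 under library sizes alone.

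Cholesterol synthesis genes turned over in the opposite sense. At 24 h 13 of 16 were higher with OO and none with N_2 (median 0.89), beside 27.7% and 27.1% of all genes. At 48 h 14 were higher with N_2, beside 38.8%. HMGCS1 measured 95.1, 129 and 111 CPM with OO and 48.0, 46.9 and 50.8 CPM with N_2 at 24 h, without overlap. Its change was 1.16 ± 0.17 at 24 h and -1.47 ± 0.05 at 48 h. All 16 members were called lower at 48 h than at 24 h in the difference (median -1.75), beside 12.1% of all genes, under each scaling and without each 24 h library. Cell cycle genes, metallothioneins and heat shock proteins kept their side. At 24 h 15 of 20 mitosis and 16 of 20 replication genes were higher with OO, beside 27.7% of all genes. Higher with N_2 were 4 of 5 metallothioneins and 8 of 12 heat shock proteins, beside 27.1% of all genes.

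**Figure D5:**
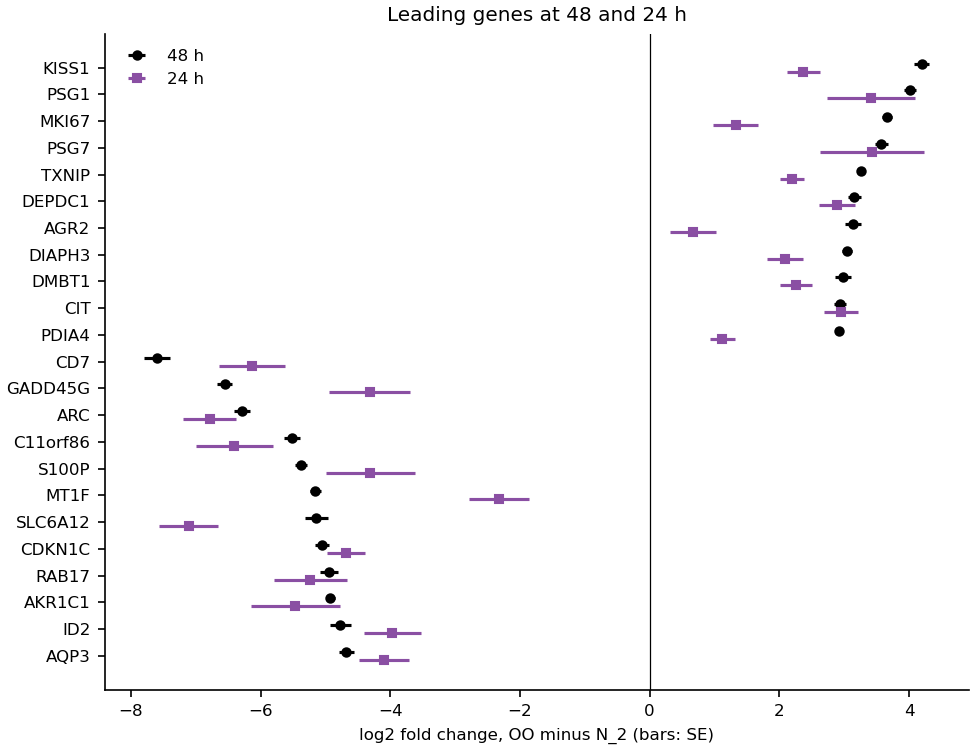
Log2 fold change, OO minus N_2, with SE bars, at 48 and at 24 h for the leading genes that the text names, which were chosen at 48 h. All of those plotted lie on the same side of 0 at both times, and MKI67, AGR2 and MT1F are among those whose size differs, with MT1F at -5.16 and -2.32 (-1.57 at 24 h without N_2 replicate 3).

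A similar pair of mixtures was sequenced in batch 1 at 48 h in 6 libraries that share none with OO and N_2. MOO adds macrozamin to the alkaloids of OO, and N_3 is CKI lacking all 3. Without a test, the 12 leading genes of each side were again in the same direction and without overlap between MOO and N_3, beside 32.2% and 29.3% of all genes. HSPA5 measured 6816, 6443 and 6491 CPM with MOO and 3741, 3772 and 3522 CPM with N_3, a narrower gap than between OO and N_2. AKR1C1 measured 12.3, 12.6 and 13.2 CPM with MOO and 382, 413 and 402 CPM with N_3, much as in OO and N_2, while CDKN1C reached 149.7, 100.8 and 125 CPM in N_3 where it had reached 328 to 464 CPM in N_2.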

How the data were processed

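Per the labels and the study's methods, the authors sequenced paired-end RNA libraries and deposited raw counts per gene for all 54 libraries in 1 table. The submitters' processing notes name FastQC 0.11.4, Trim Galore 0.3.7, STAR 2.5.3a, featureCounts of Subread 1.5.2 and edgeR 3.22.3, with build hg19. Of 27978 genes in the table, 3798 held 0 throughout. Groups came from the sample titles. Counts were used as deposited, without normalisation by the authors, and tested with edgeR 4.0.16 in R 4.3.3 (filterByExpr, TMM, quasi-likelihood test, Benjamini-Hochberg). Each comparison was fitted on its own groups, with the departure from additivity on 12 libraries and the difference between times on 12. Values printed are CPM after TMM over 30 libraries. DESeq2 1.42.0, other scalings, no filter, a fit of all 54 libraries, a replicate block and leaving out each library were alternatives.

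The OO and N_2 libraries of 48 h held 20073324 to 23459243 counts and those of UT and CKI 22033415 to 26138924, which resolves genes at a few CPM. Intervals are 95% intervals of the fit. The scripts were tested on simulated data. Libraries of a group differed by more than counting noise (2.25 to 6.64 chi-square per gene), so none was deposited under 2 names. Deviations from group means correlated at 0.0426, -0.0356 and -0.0363 between same-numbered libraries of OO and N_2, so the numbers do not pair them.

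The 24 leading genes have the largest changes in each direction (12 each) among called genes that averaged 10 CPM or more, with no overlap between groups. Up to 4 called members with the largest change are named per gene list, with the core migration genes, the 5 largest departures in each direction, and members with values of no call or of the ER chaperone, metallothionein and other lists where the text turns on them. Genes such as HSPD1, the HSP90 genes and those compared with UT or at 24 h beyond this rule were chosen after their values were seen. The members and the 28 lists were chosen with earlier results of these data known. Promoters are from RefSeq GRCh38.p14, which is not the build of the counts, and serve only as sequence. Some genes that this rule names are not reported here, and they remain in the counts and medians.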

Additional observations from a re-analysis of the deposited data

Results flagged for a closer look

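The difference between OO and N_2 depended on time for 4113 of 15299 genes, by the interaction of mixture and time in the quasi-likelihood fit of edgeR, adjusted after Benjamini and Hochberg, and 9 of the 24 leading genes were among them, of which 8 are given. The count was 2701 without N_2 replicate 1 of 24 h and 6202 with all 54 libraries in 1 fit. Values here are the log2 difference OO minus N_2 at 48 h less that at 24 h. On the OO side the gap was wider at 48 h for KISS1 (1.81), MKI67 (2.33), TXNIP (1.06), AGR2 (2.46), DIAPH3 (0.94) and PDIA4 (1.79). On the N_2 side it was wider at 48 h for MT1F (-2.85) and narrower for SLC6A12 (1.96). MT1F measured 18.0, 11.4 and 44.7 CPM in N_2 at 24 h and 85.2, 79.4 and 82.4 CPM at 48 h, with OO at 2.10 to 6.54 CPM throughout. The highest of the 24 h values is that of N_2 replicate 3, the library farthest from the others of its group, and without it the value for MT1F was -3.62, with a difference at 24 h of -1.57 in place of -2.32.

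With libraries scaled by their sizes alone the interaction was not called for DIAPH3 (adjusted p = 0.116) or SLC6A12 (0.0516). DIAPH3 also lost its call when N_2 replicate 1 or 2 or OO replicate 1 or 3 of 24 h was left out, and SLC6A12 without OO replicate 2 (0.0618). The other 6 given kept theirs under these settings. The part of the spread among the 24 h libraries in these differences was not tested beyond leaving out each library.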

How the results depend on the processing

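OO and N_2 at 48 h differed at 11765 genes, and leaving out each library gave 11432 to 11758. The ranges were 9038 to 10226 for OO against UT, 11664 to 12037 for N_2 against UT, 11357 to 11612 for the departure, 6152 to 8198 at 24 h, and 2701 (without N_2 replicate 1 of 24 h) to 5795 (without N_2 replicate 3 of 24 h) for the difference between times. The last count therefore depended on single libraries of either time, as leaving out a 48 h library gave 2814 to 3305. A change of at least 2-fold, which by construction counts fewer genes, left 3902, 2032, 5015, 6025, 4524 and 1728 genes in the same order, and all 54 libraries in 1 fit gave 6202 for the times. Scaling by library sizes alone moved the share of calls higher with OO over UT from 50.3% to 60.3% (median shift 0.0977). The DESeq2 fits also held low-count genes that the main fits left out. Their medians differed from the main ones by 0.171 for N_2 against UT, -0.158 for the departure and -0.134 at 24 h. With edgeR and no filter beyond 1 count these differences were 0.137, -0.114 and -0.0999, so they do not compare the same genes. A replicate block gave 11718, 9508, 11920, 11542, 7850 and 4020 calls. As the numbers do not pair the libraries, this is no paired analysis, and at 24 h the correlations were -0.063, 0.208 and -0.0823. The leading genes, the largest called changes per list, the core migration genes and the largest departures kept their direction between OO and N_2 at 48 h. Genes named beyond these, such as TRIB3 at -0.01, were not followed singly. Of the 18 ATF4 targets 9 were above 0, and 10 under library sizes alone. Under these settings the majority of calls turned for the difference between times (55.1% higher, 23.7% under library sizes alone) and, near an even split, in some others. Outside the fold threshold, calls of OO against N_2 at 48 h were lost for AKT2, JAK2, FOS and EGFR under at least 1 of them, such as AKT2 under the block (adjusted p = 0.0513), JAK2 under DESeq2 (0.0823) and FOS (0.0523) and EGFR (0.0942) with all 54 libraries. The cause was not tested. Directions of list medians between OO and N_2 at 48 h held under each scaling (chosen after seeing the data), except glycolysis and hypoxia at -0.03 and 0.01. Against UT those of focal adhesion (-0.02 to 0.08), ribosome biogenesis (-0.03 to 0.07) and LXR targets (-0.09 to 0.01) in OO turned under library sizes alone, and at 24 h and between the times more lists did. At 24 h the spread between libraries, 0.2045 as a biological coefficient of variation against 0.0467 at 48 h, limits what can be called.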

Other observations

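Some transcripts of transcription factors and of epithelial and mesenchymal markers differed between OO and N_2 as well. CREB3L3, a liver and gut transcription factor and a member of the PPAR target list, had 2, 5 and 0 counts in the OO libraries and 254, 237 and 209 counts in the N_2 libraries at 48 h, and 0, 1 and 4 against 411, 365 and 572 counts at 24 h. FOXA1, a pioneer factor of luminal breast cells that this basal-like line hardly makes, measured 0.179, 0.442 and 0.279 CPM with OO and 2.75, 2.18 and 1.77 CPM with N_2, with UT at 0.0402, 0 and 0 CPM. The receptor ERBB3 was 2.15-fold and the epithelial adhesion gene EPCAM 2.01-fold higher with N_2. COL1A1, a collagen of mesenchymal cells, measured 17.4, 18.3 and 15.8 CPM with OO, 56.6, 57.9 and 63.1 CPM with N_2 and 14.2, 16.1 and 15.6 CPM in UT, so the higher N_2 levels were not confined to epithelial markers. Against UT these lists were divided. In N_2, 3 of 5 tested luminal markers were higher and 1 lower, and 2 of 5 fibroblast markers were higher and 1 lower, beside 40.1% and 40.4% of all genes. In OO, 1 of 4 luminal markers was higher and 3 were lower, beside 34.1% and 33.7% of all genes.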
